A study of Rattus norvegicus with 2 samples.

Results

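The circadian clock genes described here are Dbp, Tef, Hlf, Nr1d1, Nr1d2, Per1, Per2, Per3, Arntl and Ciart, 10 genes of the 32623 gene identifiers (30017 distinct symbols) counted in single cells of rat dorsal root ganglia (DRGs). They were taken by symbol, and all 10 were present in the count table. The DPN library came from 5 male Sprague-Dawley (SD) rats that were 8 weeks old at the start, were made diabetic with 1 intraperitoneal dose of 65 mg/kg streptozotocin (STZ, a toxin of pancreatic beta cells) in citrate buffer, and were kept for 8 weeks to develop diabetic peripheral neuropathy (DPN). The Control library came from 5 male SD rats of the same age that were given citrate buffer alone. Bilateral L3 to L6 ganglia of each condition were pooled, digested into single cells and freed of dead cells, so each condition is 1 library and no test between conditions was possible. All rats were housed under a regular cycle of light and dark, but the sources used here do not give the hour at which the ganglia were taken. A difference of condition and a difference of hour therefore cannot be told apart in these libraries.

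The circadian clock of most mammalian cells is a loop of transcription. The proteins CLOCK and BMAL1 (the product of Arntl) bind E-boxes and drive the genes of their own inhibitors, PER and CRY, together with Nr1d1, Nr1d2, Ciart, Dbp, Tef and Hlf, and the REV-ERB proteins made by Nr1d1 and Nr1d2 in turn repress Arntl through ROR elements. Arntl messenger RNA thus runs opposite in phase to Nr1d1 and Dbp, and in DRGs, as in other peripheral tissues, the phase is set by signals from the brain, feeding and body temperature. Readings at different hours of one rhythm can therefore place driven genes higher and Arntl lower, or the reverse, although the driven genes do not all peak at the same hour.

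Unique molecular identifiers (UMIs), each standing for 1 captured transcript molecule, were summed over cells that met marker gates, and levels are given as UMIs per 1000000 UMIs of all genes in the cells of a type (UPM). The gated satellite glia, the cells that wrap sensory neurons, numbered 2955 in DPN and 4083 in Control. Myelinating Schwann cells numbered 448 in DPN and 328 in Control, endothelial cells 1149 and 767, smooth muscle cells 535 and 363, and fibroblasts 314 and 205. The libraries held 115409375 UMIs in 13168 barcodes for DPN and 121101966 UMIs in 11011 barcodes for Control, of which 38 barcodes were shared, and the median depth of a barcode was 5919 UMIs in DPN and 8993 UMIs in Control. The gate genes are high in a type by the rule, so the labels were checked on markers that no gate used. Emcn, of endothelium, stood at 813 UPM in DPN and 976 UPM in Control endothelial cells with pericytes next, and Tagln, of smooth muscle, at 5595 and 8785 UPM in the smooth muscle cells and next at 420.1 and 579 UPM in pericytes. Dcn, of fibroblasts, stood at 23882 and 32259 UPM in the fibroblasts and at most at 95.9 and 88.4 UPM elsewhere. No such check is given for satellite glia and myelinating Schwann cells, whose labels rest on their gate genes. Intervals below are 95% intervals for counting error only, and cover neither differences among rats nor the preparation of the libraries. The types were read from the same pair of libraries and are not independent of each other.

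In all 5 gated types every driven clock gene with at least 50 UMIs over both libraries had a ratio of levels, DPN over Control, above 1, and the ratio of Arntl was below 1, with an interval below 1 in satellite glia, endothelium and smooth muscle. A gene with at least 50 UMIs is called past the fold when its ratio of UPM, DPN over Control, was at least 1.5 or at most 0.667. In satellite glia 8 of 9 clock genes were past the fold and higher in DPN, beside 27.6% of all 11756 genes, and 1 of 9 was lower, beside 2.75% of all genes. In endothelium 9 of 10 were higher, beside 20.5% of 10300 genes, and 1 of 10 was lower, beside 5.57%. Myelinating Schwann cells had 5 of 7 higher, beside 21.2% of 6213 genes, and 0 of 7 lower, beside 6.05%. Smooth muscle had 4 of 7 higher, beside 20% of 6594 genes, and 0 of 7 lower, beside 4.52%. Fibroblasts had 6 of 7 higher, beside 28.8% of 6132 genes, and 0 of 7 lower, beside 5.12%.

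The size of the shift was larger than that of the typical gene in each of these types. The median log2 ratio of the clock genes with enough UMIs was 1.06 in satellite glia, 0.69 in myelinating Schwann cells, 1.21 in endothelium, 0.96 in smooth muscle and 1.09 in fibroblasts. The median over all genes was 0.21 in satellite glia, 0.10 in myelinating Schwann cells, 0.07 in endothelium, 0.09 in smooth muscle and 0.20 in fibroblasts. More genes were past the fold upwards than downwards in every type, so a higher clock gene is read against that background, while a lower one stands among few.

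**Figure D1:**
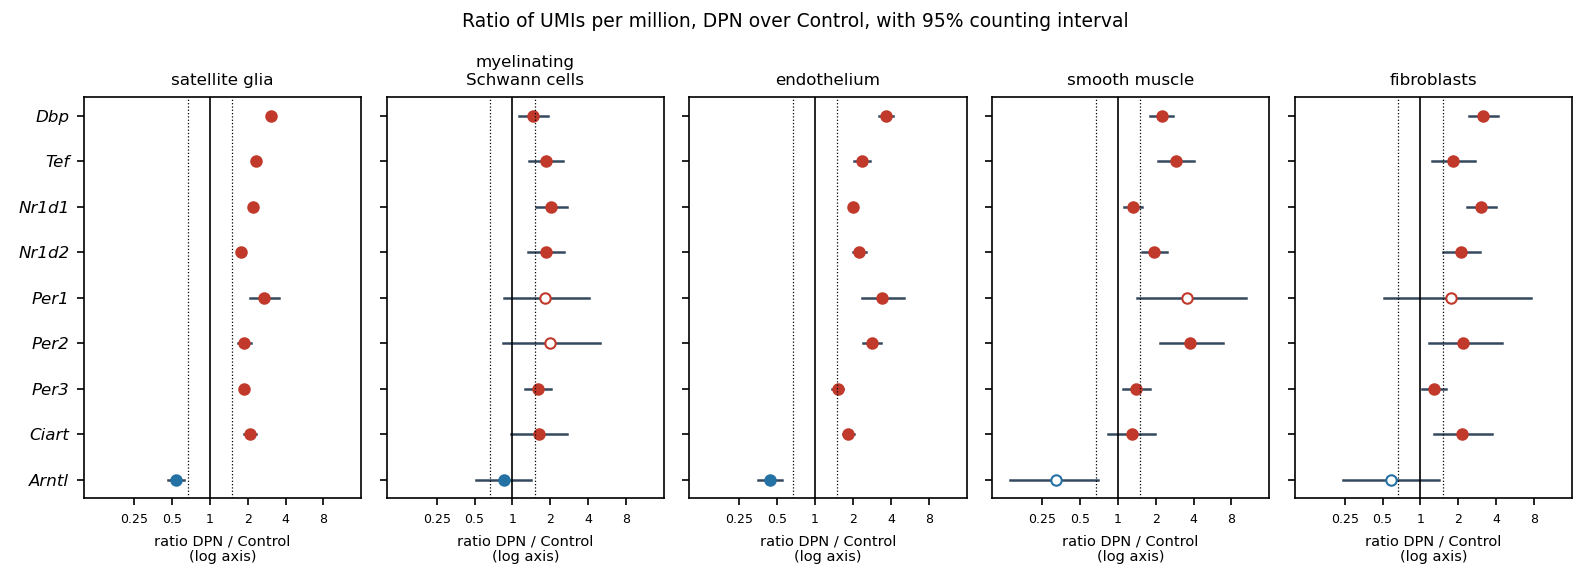
Ratio of UPM, DPN over Control, on a log axis for 9 clock genes in the 5 gated cell types. Points are ratios with 95% counting intervals, open points rest on fewer than 50 UMIs, dotted lines mark 1.5 and 0.667, and Arntl (blue) is the gene left of 1 in each panel, from 0.325 in smooth muscle to 0.857 in myelinating Schwann cells.

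Promoter sequences of 9 of the 10 genes were found in RefSeq (assembly GRCr8), Hlf excepted, as windows of 250 bases before to 50 bases after each annotated start. The letters searched on both strands were CACGTG (E-box, in 6.42% of all 33469 promoters), CACGTT (variant E-box, 4.83%), TTANGTAA (D-box, the element of DBP, TEF and HLF, 2.24%) and ANTAGGTCA (ROR element, 0.657%). The windows are shown for the genes with the most such matches and for Arntl, whose regulation runs through another element, with the matched letters in capitals. The Ciart promoter (chr2:186112197-186112496, minus strand) held 3 E-boxes whose first bases lie 93, 35 and 21 bases before the start. The Per2 promoter (chr9:99496944-99497243, minus strand) held a D-box and a variant E-box, and the window at the second start of Nr1d1 (chr10:84229405-84229704, minus strand) an E-box. The Arntl promoter (chr1:176766078-176766377, plus strand), listed under the symbol Bmal1, held a ROR element and no E-box of either form.
Ciart: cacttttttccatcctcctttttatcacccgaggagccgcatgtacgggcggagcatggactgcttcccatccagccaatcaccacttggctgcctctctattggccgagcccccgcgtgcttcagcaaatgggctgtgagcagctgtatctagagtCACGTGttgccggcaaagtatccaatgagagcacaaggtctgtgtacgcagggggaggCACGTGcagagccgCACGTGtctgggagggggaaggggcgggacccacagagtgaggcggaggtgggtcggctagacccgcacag
Per2: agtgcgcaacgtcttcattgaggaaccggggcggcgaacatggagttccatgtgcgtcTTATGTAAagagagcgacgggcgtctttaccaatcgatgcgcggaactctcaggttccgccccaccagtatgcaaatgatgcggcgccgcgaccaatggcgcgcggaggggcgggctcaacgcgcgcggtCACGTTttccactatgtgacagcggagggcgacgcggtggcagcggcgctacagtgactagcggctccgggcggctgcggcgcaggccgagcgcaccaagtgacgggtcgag
Nr1d1: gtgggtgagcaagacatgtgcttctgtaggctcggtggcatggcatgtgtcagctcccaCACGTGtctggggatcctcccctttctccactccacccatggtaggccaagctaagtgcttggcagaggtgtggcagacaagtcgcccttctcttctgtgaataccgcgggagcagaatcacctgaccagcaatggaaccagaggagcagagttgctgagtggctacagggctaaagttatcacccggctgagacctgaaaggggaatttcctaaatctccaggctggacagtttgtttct
Arntl: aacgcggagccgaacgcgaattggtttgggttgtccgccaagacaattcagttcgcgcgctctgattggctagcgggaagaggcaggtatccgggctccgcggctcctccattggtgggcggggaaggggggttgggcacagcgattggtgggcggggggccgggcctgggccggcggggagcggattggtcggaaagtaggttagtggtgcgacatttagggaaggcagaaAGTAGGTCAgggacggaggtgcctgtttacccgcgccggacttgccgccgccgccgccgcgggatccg
Tef had an E-box 198 bases before its start, and the window at the first start of Nr1d1 had a variant E-box 174 bases before it. No match was found in the windows of Dbp, Nr1d2, Per1 and Per3, which says only that these letters are not in those 300 bases. Genes with and without a match both had ratios above 1, Dbp and Nr1d2 among those without, so nothing is read from these letters about the ratios.

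Dbp (ENSRNOG00000021027) encodes a PAR bZIP transcription factor, a direct output of the clock that activates genes through D-boxes. Its level was 112 UPM in DPN and 36.7 UPM in Control satellite glia, from 3712 and 2099 UMIs. In endothelium it was 118 UPM in DPN and 32.3 UPM in Control, in smooth muscle 140 UPM and 63.0 UPM, and in fibroblasts 158 UPM and 50.5 UPM. The counting intervals of the levels did not overlap between DPN and Control in any of these 4 types. The share of all genes with such a separation is not given for these types. In kept cells that met no gate, 48.8% of genes had a ratio with an interval above 1. The ratios were 3.06 (interval 2.90 to 3.23) in satellite glia, 3.65 (3.23 to 4.13) in endothelium, 2.23 (1.81 to 2.75) in smooth muscle and 3.14 (2.43 to 4.10) in fibroblasts. Myelinating Schwann cells had 68.9 UPM in DPN and 47.0 UPM in Control, a ratio of 1.47 (1.13 to 1.91) that was within the fold. Dbp was the clock gene with the highest ratio among those with at least 50 UMIs in satellite glia, endothelium and fibroblasts. The interval of Dbp overlapped that of Per1 in satellite glia and endothelium and that of Nr1d1 in fibroblasts, so this rank is not resolved. Its ratio exceeded that of 97.3% of all genes in satellite glia and of 99.3% in endothelium. UMIs of Dbp were spread over many cells, 1768 of the 2955 DPN and 1402 of the 4083 Control satellite glia, with at most 14 UMIs in a single DPN cell and 8 in a Control cell.

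Tef (ENSRNOG00000019383), a PAR bZIP factor that shares the D-box with Dbp, was past the fold in all 5 types. Satellite glia had 61.2 UPM in DPN and 26.4 UPM in Control, myelinating Schwann cells 58.9 and 32.2, endothelium 57.8 and 24.4, smooth muscle 72.8 and 25.3, and fibroblasts 46.7 and 25.9. Neighbours in the order of types had overlapping intervals in both libraries, while in DPN the intervals of smooth muscle and fibroblasts, at the ends of this order, did not overlap. The ratio was highest in smooth muscle, at 2.88 (2.10 to 4.02), and lowest in fibroblasts, at 1.80 (1.23 to 2.69). Hlf (ENSRNOG00000002456), the third PAR bZIP gene, had enough UMIs only in endothelium, with 39 UMIs in DPN and 12 in Control. These are 3.0 and 1.21 UPM, a ratio of 2.48 (1.27 to 5.20), and the other 4 gated types held at most 5 Hlf UMIs in either library, so that no difference was detectable there at this depth.

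Nr1d1 (ENSRNOG00000009329) encodes REV-ERB alpha, the nuclear receptor that represses Arntl. Its level in endothelium was 283 UPM in DPN and 141 UPM in Control, the highest value of the 9 types examined in both libraries. In DPN the interval of endothelium did not reach that of any other type. In Control the interval of endothelium (134 to 149 UPM) overlapped that of pericytes (93.7 to 137 UPM), so the rank is not resolved there. Satellite glia had 143 UPM in DPN and 64.8 UPM in Control, myelinating Schwann cells 72.2 and 35.5, smooth muscle 155 and 118, and fibroblasts 148 and 49.1. The ratios were 2.21 (2.12 to 2.31) in satellite glia, 2.03 (1.53 to 2.72) in myelinating Schwann cells, 2.0 (1.88 to 2.13) in endothelium, 1.32 (1.12 to 1.56) in smooth muscle and 3.03 (2.33 to 3.97) in fibroblasts. Smooth muscle was thus the type with the smallest ratio, within the fold, and its interval did not overlap that of satellite glia. In cells with under 10% mitochondrial UMIs the ratio of Nr1d1 was within the fold in satellite glia (1.39) and myelinating Schwann cells (1.27) too. Nr1d2 (ENSRNOG00000046912), which encodes the related repressor REV-ERB beta, was past the fold in all 5 types, and its ratios lay close together, from 1.76 (1.66 to 1.87) in satellite glia to 2.25 (2.0 to 2.55) in endothelium. Its levels ran from 51.3 UPM in myelinating Schwann cells to 103 UPM in smooth muscle in DPN, and from 27.8 UPM in myelinating Schwann cells to 52.6 UPM in smooth muscle in Control.

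**Figure D2:**
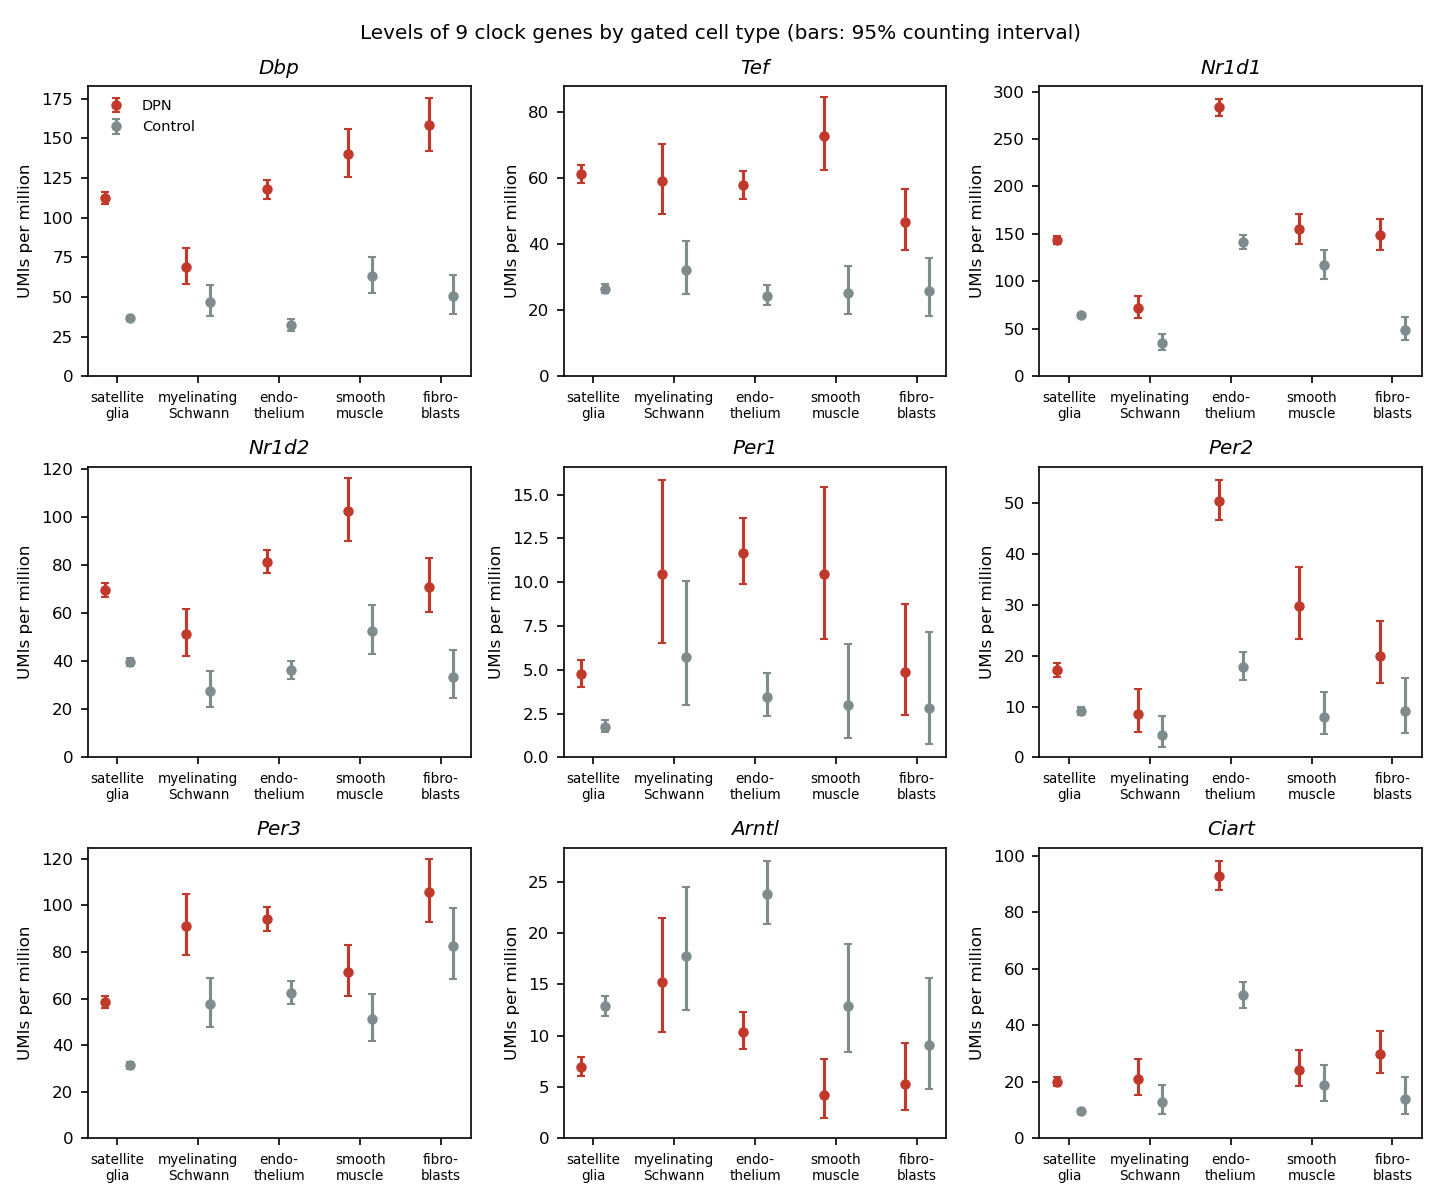
Level of 9 clock genes in UPM for DPN (red) and Control (grey) in the 5 gated cell types, with a linear axis from 0 in each panel and 95% counting intervals as bars. DPN lies above Control for every gene except Arntl, where it lies below, and the bars overlap in at least 1 type for Per1, Per2, Per3, Ciart and Arntl.

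The Period genes encode the inhibitors of CLOCK and BMAL1, and Per1 is in addition an immediate early gene that stimuli and glucocorticoids induce. Per1 (ENSRNOG00000007387) was sparse, with 157 UMIs in DPN and 100 in Control satellite glia and 152 and 34 in endothelium. Its ratio was 2.72 (2.10 to 3.53) in satellite glia and 3.41 (2.34 to 5.10) in endothelium. Myelinating Schwann cells (22 UMIs in DPN and 12 in Control), smooth muscle (25 and 6) and fibroblasts (11 and 4) stayed under 50 UMIs, and only the smooth muscle interval, 1.41 to 10.5, lay above 1. Per2 (ENSRNOG00000020254) was highest in endothelium among the 5 gated types, at 50.5 UPM in DPN and 17.8 UPM in Control, a ratio of 2.83 (2.39 to 3.36). Myelinating Schwann cells held 18 Per2 UMIs in DPN and 9 in Control (ratio 1.98, 0.845 to 5.01), under the minimum. The ratio of Per2 was 3.74 (2.16 to 6.90) in smooth muscle from 71 UMIs in DPN and 16 in Control, 2.20 (1.16 to 4.44) in fibroblasts from 45 and 13, and 1.88 (1.67 to 2.12) in satellite glia from 565 and 520.

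Per3 (ENSRNOG00000018413) had the lowest ratio among the Period genes with enough UMIs, in the types where another of them had enough. Fibroblasts had 106 UPM in DPN and 82.7 UPM in Control, a ratio of 1.28 (1.02 to 1.61), and smooth muscle 71.6 and 51.1 UPM, a ratio of 1.40 (1.09 to 1.81). The ratio was 1.51 (1.37 to 1.67) in endothelium, 1.58 (1.26 to 2.01) in myelinating Schwann cells and 1.87 (1.75 to 1.99) in satellite glia, where it was 1.38 in cells with under 10% mitochondrial UMIs. Within endothelium the interval of Per3 lay below those of Per1 and Per2, but in satellite glia and fibroblasts it overlapped that of Per2. Ciart (ENSRNOG00000042717) encodes CHRONO, a further repressor of CLOCK and BMAL1. Its level was 92.9 UPM in DPN and 50.6 UPM in Control endothelium, above every other type in both libraries, and 19.9 and 9.54 UPM in satellite glia. The ratio of Ciart was 2.09 (1.86 to 2.35) in satellite glia, 1.84 (1.65 to 2.04) in endothelium and 2.13 (1.27 to 3.70) in fibroblasts. In myelinating Schwann cells (1.61) and smooth muscle (1.29) its interval included 1.

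Arntl (ENSRNOG00000014448) encodes BMAL1, the activator of the loop and the target of the REV-ERB repressors. Satellite glia held 230 Arntl UMIs in DPN and 736 in Control, which are 6.96 and 12.9 UPM. Endothelium held 135 and 236 UMIs, which are 10.4 UPM in DPN and 23.8 UPM in Control. The ratio was 0.541 (0.465 to 0.629) in satellite glia and 0.436 (0.350 to 0.541) in endothelium, both past the fold. Only 0.808% of all genes in satellite glia and 0.621% of all genes in endothelium had a lower ratio. Myelinating Schwann cells had 15.2 UPM in DPN and 17.8 UPM in Control, and the ratio of 0.857 (0.517 to 1.41) could not be told from 1. Arntl was under 50 UMIs in the remaining types, with 10 UMIs in DPN and 26 in Control smooth muscle (ratio 0.325, 0.140 to 0.696) and 12 and 13 in fibroblasts (0.586, 0.244 to 1.39). The interval therefore lay below 1 in 3 of the 5 types, and in the others the ratio was below 1 with an interval that included 1. The share of all genes with an interval below 1 is not given for these types. In kept cells that met no gate it was 18.8%.

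**Figure D3:**
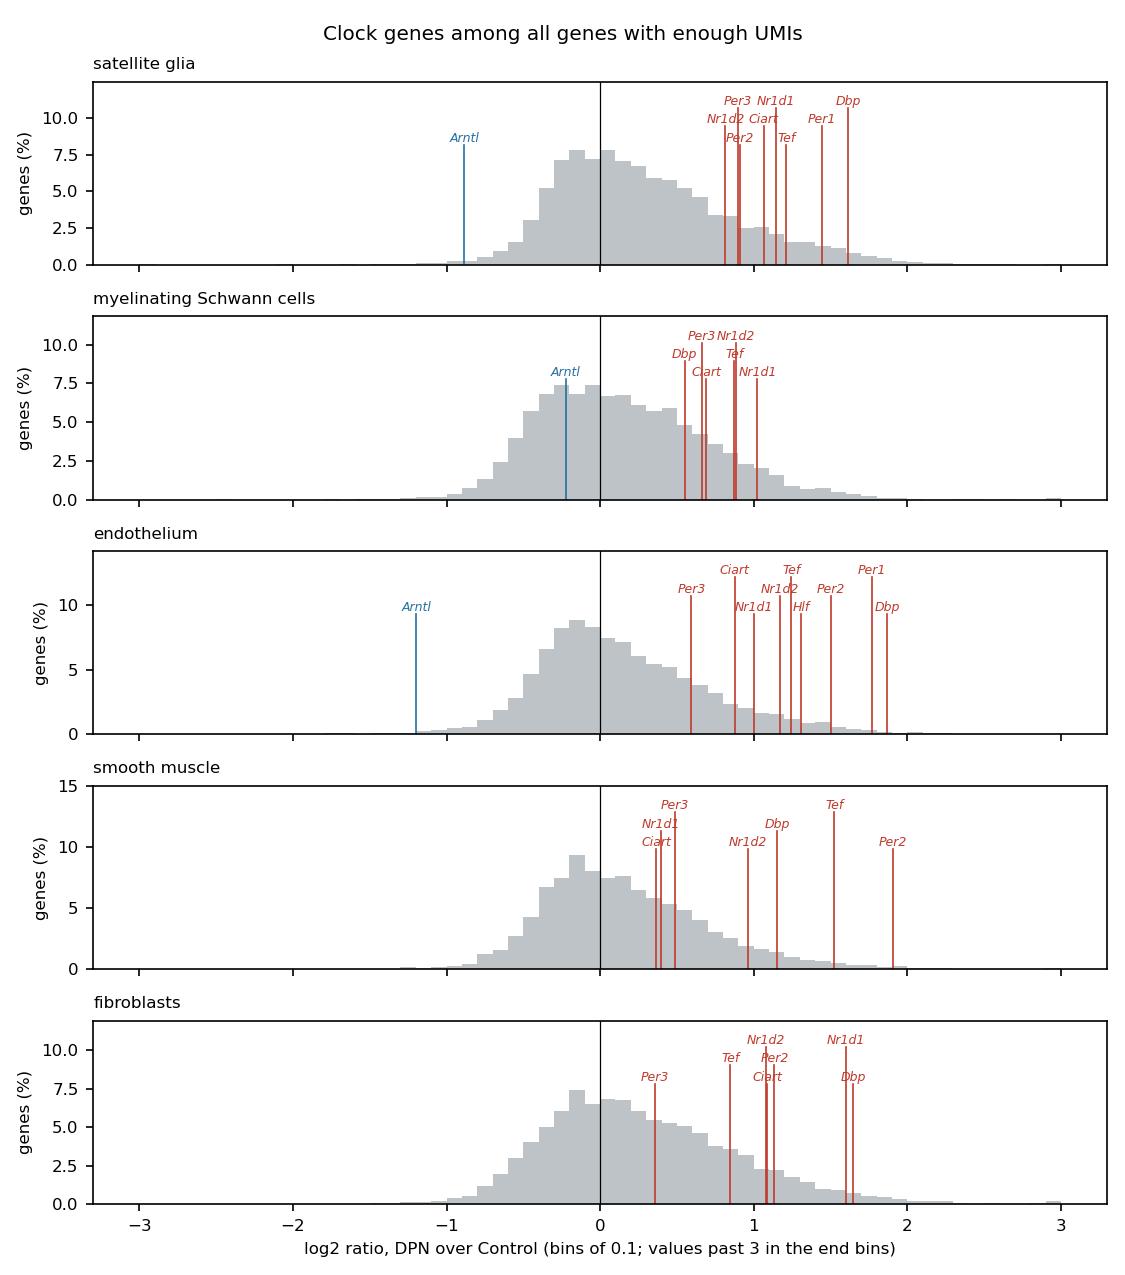
Distribution of the log2 ratio, DPN over Control, of all genes with at least 50 UMIs in each gated type (grey bars, percent of genes in bins of 0.1), with the clock genes of the same minimum as lines. The driven genes (red) stand right of the centre in each panel, and Arntl (blue) stands at -0.89 in satellite glia, -0.22 in myelinating Schwann cells and -1.20 in endothelium.

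The ratio of each driven gene to Arntl within a library does not depend on how the libraries were scaled. There were 16.1 Dbp UMIs per Arntl UMI in DPN and 2.85 in Control satellite glia, 11.3 and 1.36 in endothelium, 33.5 and 4.88 in smooth muscle, 29.7 and 5.54 in fibroblasts, and 4.53 and 2.65 in myelinating Schwann cells. For Nr1d1 the same quantity was 20.6 in DPN and 5.04 in Control satellite glia and 27.3 and 5.94 in endothelium. DPN over Control, this balance moved 5.66-fold for Dbp in satellite glia, 8.37-fold in endothelium and 1.71-fold in myelinating Schwann cells. The values for smooth muscle and fibroblasts rest on the few Arntl UMIs given above. In each of the 5 types the ratios of the driven genes with at least 50 UMIs and the ratio of Arntl lay on opposite sides of 1. In myelinating Schwann cells and fibroblasts the interval of Arntl included 1, so its side is not resolved there. With cells under 10% mitochondrial UMIs this order of the ratios held in 3 of the 4 types that could be read. Ciart in smooth muscle came to 0.945 there. The order held in 4 of 5 types when cells were thinned to 1000 UMIs, which left 3 Arntl UMIs in DPN and 1 in Control fibroblasts. Only driven genes that still had 50 UMIs were counted, after thinning 1 in myelinating Schwann cells and 4 in smooth muscle. Arntl in smooth muscle then rested on 1 UMI in DPN and 5 in Control. Ciart, under the minimum after thinning, came to 0.732 in myelinating Schwann cells and 0.872 in smooth muscle.

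**Figure D4:**
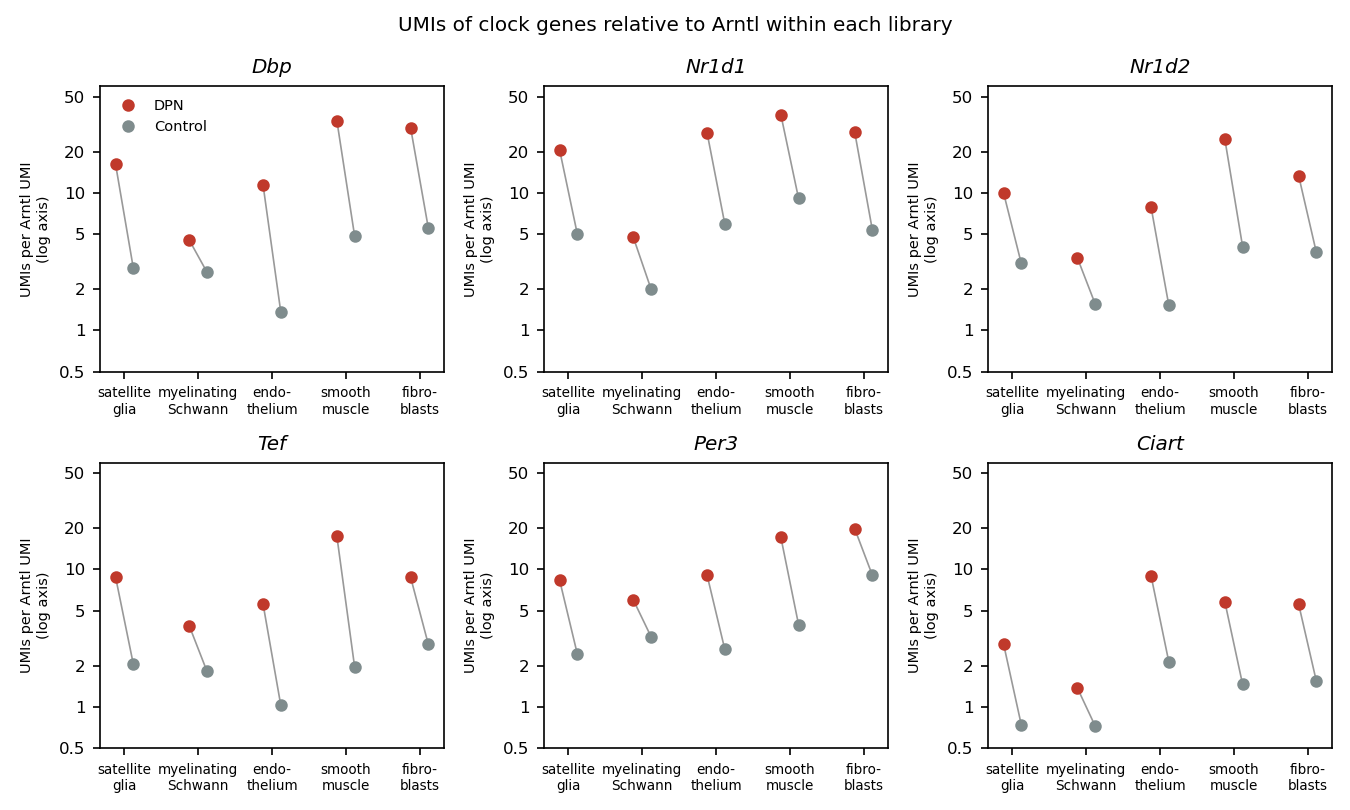
UMIs of 6 driven clock genes per UMI of Arntl within the DPN (red) and Control (grey) libraries, on a log axis, for the 5 gated types, with a line joining the libraries of a type. DPN lies above Control in every pair, and smooth muscle and fibroblasts rest on 10 and 12 Arntl UMIs in DPN.

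Gene length moved with the ratios of all genes and is given here beside the clock genes. In satellite glia 45.8% of genes of at least 50 kb were past the fold and higher in DPN, against 12.8% of genes under 10 kb. In endothelium these shares were 37.6% and 7.06%. Dbp (4.95 kb), Ciart (5.04 kb) and Nr1d1 (7.21 kb) belong to the short genes, of which few were higher, and Arntl (98.5 kb) to the long genes, of which 0.994% in satellite glia and 3.16% in endothelium were past the fold and lower. The lengths of Per1 (14.8 kb), Tef (24.8 kb), Nr1d2 (26.3 kb), Per3 (37.3 kb) and Per2 (42.2 kb) lie between. Hlf (57.7 kb), with a ratio of 2.48 in endothelium, belongs to the long genes, among which higher genes were common.

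RNA of other cells was present in each type. Fabp7 and Tyrp1, the genes of the satellite glia gate, stood in endothelium at 2.39% of their glial level in DPN and 2.37% in Control, and in fibroblasts at 3.97% and 3.09%. In myelinating Schwann cells they stood at 4.58% and 4.72%, and in smooth muscle at 4.53% and 3.96%. At the share of each type, satellite glial RNA would make up at most 9.10% of a clock gene level in DPN and 8.62% in Control. Both values are those of Nr1d1 in myelinating Schwann cells. The estimate covers 31 pairs of gene and type outside the satellite glia, and no RNA of other glia. Cells rich in Fabp7 and Tyrp1 were kept out of the other types by the gates. The shares are therefore held down by the rule, and the estimate is no upper limit. Markers of non-myelinating Schwann cells (Scn7a, Cdh19 and Sostdc1) summed in smooth muscle to 13.4% of their own level in DPN and 8.11% in Control. In myelinating Schwann cells they stood at 22.2% and 21.1%, and in fibroblasts at 8.22% and 3.51%. The part of such RNA in the clock gene levels was not tested. The summed level of 5 neuron markers (Nefl, Nefm, Avil, Stmn2 and Prph) was higher in DPN in all 5 types, from 1.70-fold in satellite glia, where it was 229 UPM in DPN and 134 UPM in Control, to 2.96-fold in myelinating Schwann cells, where it was 544 and 184 UPM. Neurons themselves had the lowest or the next to lowest level of every clock gene but Hlf among the 9 types in the DPN library, with 11.0 UPM of Dbp and 8.0 UPM of Nr1d1. Red blood cell markers summed to 562 UPM in DPN and 6.72 UPM in Control myelinating Schwann cells, and neutrophil markers to 2.93 UPM in DPN and 263 UPM in Control smooth muscle, and their part in the ratios of those types was not tested.

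The remaining genes of the clock were read from a list of 10, none of which is a member of the set above. Cry2, a partner of the PER proteins, had ratios of 1.57 in satellite glia, 1.62 in myelinating Schwann cells, 1.81 in endothelium, 1.29 in smooth muscle and 1.53 in fibroblasts. Bhlhe40, an E-box repressor that CLOCK and BMAL1 drive and that stimuli also induce, had 2.82, 1.53, 2.29, 1.49 and 4.66 in the same order of types. Cry1, whose rhythm lags behind that of the Period genes, was near 1 in satellite glia (1.01) and myelinating Schwann cells (1.07) and higher in endothelium (1.96) and smooth muscle (1.52). Nfil3, the repressor that competes with Dbp at D-boxes, had ratios from 0.80 in smooth muscle to 1.09 in myelinating Schwann cells. Rora, an activator of Arntl, ran from 1.04 in satellite glia to 1.51 in endothelium, and Clock, whose RNA cycles weakly in most tissues, from 0.71 in fibroblasts to 1.65 in myelinating Schwann cells. Rorb reached 50 UMIs only in satellite glia, with 1.44, and Npas2 only in fibroblasts, with 0.71. In all, 2 of 7 of these genes were past the fold and higher in satellite glia, 3 of 6 in myelinating Schwann cells, 4 of 6 in endothelium, 1 of 6 in smooth muscle and 2 of 6 in fibroblasts, and 0 were lower. The share of all genes past the fold and higher was 27.6%, 21.2%, 20.5%, 20% and 28.8% in the same order of types, and the counts in satellite glia, smooth muscle and fibroblasts lie near it.

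Other lists that bear on the clock were read in the same way, against the same shares of all genes (27.6% in satellite glia, 21.2% in myelinating Schwann cells, 20.5% in endothelium, 20% in smooth muscle and 28.8% in fibroblasts). Of 7 genes whose products act on the clock proteins, 1 of 7 was past the fold and higher in satellite glia, 1 of 5 in myelinating Schwann cells, 0 of 6 in endothelium, 0 of 5 in smooth muscle and 2 of 4 in fibroblasts. Csnk1d, a casein kinase that phosphorylates PER, had ratios between 1.03 and 1.16 in these types. Among further outputs of the clock 4 of 9 were higher in satellite glia, 1 of 5 in myelinating Schwann cells, 2 of 8 in endothelium, 2 of 7 in smooth muscle and 3 of 6 in fibroblasts, and Nfkbil1 in myelinating Schwann cells (0.64) was the gene past the fold and lower. Wee1, a cell cycle kinase with E-boxes in its promoter, had ratios of 1.77 in satellite glia, 1.28 in myelinating Schwann cells, 1.75 in endothelium, 2.09 in smooth muscle and 2.52 in fibroblasts, while Nampt, the enzyme of NAD recovery, stayed between 0.96 and 1.15.

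Lists of signals that can set or mimic a clock shift were read beside these, against the same shares of all genes, from 20% in smooth muscle to 28.8% in fibroblasts. Of 9 glucocorticoid-induced genes, a list that holds Per1 too, 3 of 9 were past the fold and higher in satellite glia, 1 of 6 in myelinating Schwann cells, 2 of 9 in endothelium, 0 of 6 in smooth muscle and 1 of 7 in fibroblasts. Fkbp5, a strong target of the glucocorticoid receptor, had a ratio of 1.17 in satellite glia, 1.14 in endothelium and 0.70 in fibroblasts. Of 10 immediate early genes, 5 were higher in satellite glia, 0 in myelinating Schwann cells, 2 in endothelium, 0 in smooth muscle and 5 in fibroblasts, with Fos at 2.02 in satellite glia and 1.45 in endothelium. Of 7 genes that respond to temperature 6 had enough UMIs, of which 0 were past the fold and higher in any of the 5 types. In satellite glia, myelinating Schwann cells and fibroblasts 1 of 6 was lower, beside 2.75%, 6.05% and 5.12% of all genes. In endothelium and smooth muscle 2 of 6 were lower, beside 5.57% and 4.52%. The heat shock gene Hspa1b was lower in all 5, from 0.438 in smooth muscle to 0.568 in satellite glia. Cirbp, the cold-inducible RNA-binding protein whose RNA follows body temperature, had ratios between 0.90 and 1.15. Whether these signals had a part in the clock genes was not tested.

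The clock genes were also read in 4 cell types outside the gates above. Non-myelinating Schwann cells (3321 cells in DPN and 1451 in Control) had 7 of 9 clock genes past the fold and higher, beside 24.8% of all genes, and 1 of 9 lower, beside 2.32%. Their Dbp level was 109 UPM in DPN and 28.1 UPM in Control (ratio 3.89, 3.41 to 4.46), and their Arntl level 10.2 and 23.0 UPM (0.441, 0.359 to 0.542). Only 0.193% of all genes in these cells had a lower ratio than Arntl. Pericytes (330 and 198 cells) had 3 of 6 past the fold and higher, beside 18.2% of all genes. Their ratios of Dbp (5.29, 3.64 to 7.91) and Tef (5.85, 3.16 to 11.8) were the largest of all 9 types. These came from 189 UMIs in DPN and 33 in Control and from 76 and 12. The interval of Dbp overlapped those of non-myelinating Schwann cells, endothelium and fibroblasts, and that of Tef the one of smooth muscle, so these ranks are not resolved. Arntl in pericytes rested on 10 UMIs in DPN and 12 in Control (0.770, 0.298 to 1.94).

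Neurons and macrophages gave other values. Neurons (99 cells in DPN and 59 in Control, not divided by kind) had 11.0 UPM of Dbp in DPN and 11.2 UPM in Control, a ratio of 0.981 (0.707 to 1.37). Nr1d1 in neurons had a ratio of 0.979 (0.665 to 1.45), Nr1d2 1.07 (0.819 to 1.40), Tef 1.33 (1.10 to 1.61) and Arntl 1.14 (0.632 to 2.10). Only Per3, with 98 UMIs in DPN and 32 in Control (2.18, 1.45 to 3.36), was past the fold in neurons, 1 of 6 clock genes beside 20.1% of all genes. Per2 in neurons, under the minimum with 26 UMIs in DPN and 6 in Control, had a ratio of 3.08 (1.24 to 9.16). The interval of Dbp in neurons lay below its interval in each of the gated types except myelinating Schwann cells. Macrophages (212 and 162 cells) had 3 of 6 past the fold and higher, beside 22.4% of all genes. They held 26 Dbp UMIs in DPN and 30 in Control (0.813, 0.462 to 1.42), but 37 and 16 of Nr1d1 (2.17, 1.18 to 4.18), 84 and 40 of Nr1d2 (1.97, 1.34 to 2.95) and 38 and 15 of Per2 (2.38, 1.28 to 4.65). Arntl in macrophages, with 12 UMIs in DPN and 7 in Control, had a ratio of 1.61 and an interval of 0.584 to 4.82. Of these 4 types the interval of Arntl lay below 1 in the non-myelinating Schwann cells. In pericytes, macrophages and neurons, as in myelinating Schwann cells and fibroblasts, it included 1, and in neurons and macrophages that of Dbp included 1 too.

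**Figure D5:**
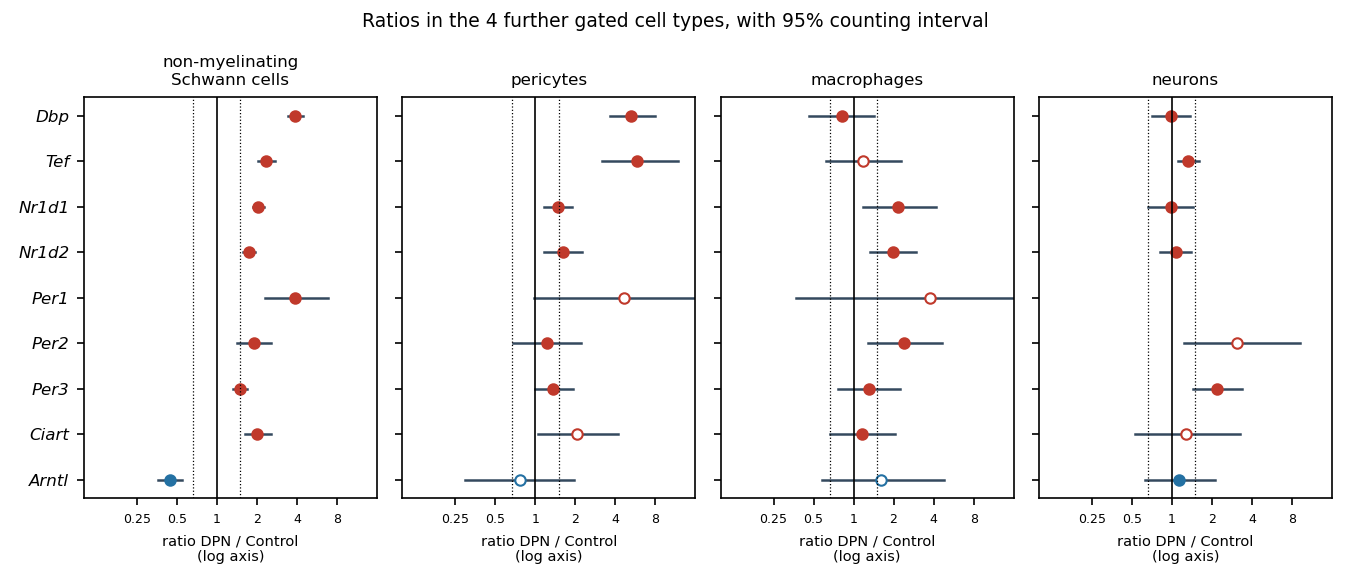
Ratio of UPM, DPN over Control, on a log axis in 4 further cell types, with 95% counting intervals and open points for genes under 50 UMIs. Non-myelinating Schwann cells have Dbp at 3.89 and Arntl at 0.441, and neurons have Dbp at 0.981, Nr1d1 at 0.979 and Arntl at 1.14.

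Genes whose ratios were high in all types were not confined to the clock. Of 4957 genes with at least 50 UMIs in each of the 5 gated types, 351 (7.08%) were past the fold and higher in all 5 and 6 (0.121%) were lower in all 5. Of the 6 clock genes with that many UMIs in each type, Tef and Nr1d2 were past the fold in all 5. Ordered by the lowest ratio over the 5 types, Tef stood at place 131, Nr1d2 at 157, Dbp at 399, Nr1d1 at 676, Ciart at 756 and Per3 at 781. Among the genes at the head of this order were Sst, the neuropeptide somatostatin, with ratios from 15.5 to 35.0, and then Suz12 (a Polycomb protein), Tmod2, Slc30a9, Ank2, Arhgef12, Scn7a (a sodium channel of glia and a gate gene above), Tnks and Eps15, whose lowest ratios ran from 2.78 for Eps15 to 3.43 for Suz12. At the other end, with Arntl short of the UMIs needed, stood Hspa1b, Atp5md and Atp5f1e (subunits of the mitochondrial ATP synthase), Trappc3 and H3f3c (a histone gene with near-identical copies, so its counts are uncertain), whose highest ratio over the types was 0.568 for Hspa1b and at most 0.700 for the others.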

How the data were processed

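The DRG suspensions were run as 10x Genomics 3′ v3 libraries. The authors made the deposited counts, UMIs per gene and cell barcode without normalization, with Cell Ranger 3.1.0 and the STAR aligner; the sources used here name no genome build, and the methods list down-sampling of reads as a step for when it was needed, so its use here is not clear. Counts of identifiers that share a symbol (147 symbols) were added.

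Cells were kept with at least 1000 UMIs and under 20% UMIs of Mt- genes. Per 10000 UMIs the gates were Fabp7+Tyrp1 of at least 12 (satellite glia), Prx+Mag+Cldn19 of 5 (myelinating Schwann cells), Cldn5+Flt1+Cdh5 of 10 (endothelium), Myh11 of 2 (smooth muscle) and Lum of 5 (fibroblasts). Among cells outside these gates, non-myelinating Schwann cells had Scn7a+Cdh19 of at least 5, pericytes Rgs5+Kcnj8+Abcc9 of 10, macrophages C1qa+C1qb+C1qc+Csf1r of 10 and neurons Nefl+Nefm+Avil of 20 with at least 3 UMIs. Scn7a itself differed between the libraries. Cells that met several gates (106 in DPN and 67 in Control among the first 5) were left out, which was the treatment of doublets, and no doublet caller was run. After these steps 5401 of 11013 kept DPN cells and 5746 of 9798 kept Control cells were in the first 5 types.

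UMIs were summed per gene, type and library (Python 3.11.15, scipy 1.17.1). Levels carry exact Poisson intervals and ratios exact conditional binomial intervals at 95%. With 1 library per condition no test was made, and a fold of 1.5 in genes of at least 50 UMIs served as a rule of size. The ratio script was tested on simulated counts. Gene lengths are the spans of RefSeq (GRCr8), matched for at least 93.4% of the genes in each type. The clock genes, the other lists and the gates were chosen with earlier results of these data known. Named beside all members were the other core clock genes with at least 50 UMIs, and the 10 genes of the highest lowest ratio and 5 of the lowest highest ratio over the 5 types, clone names left out. Of these genes and the markers of the types, some are not reported here. Other genes from the lists were named after their values were seen. The label Chrono of the list of regulators is not a symbol of the table (it is Ciart). Alternatives changed the gates, the filters on cells, the scaling, the depth and the thresholds.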

Additional observations from a re-analysis of the deposited data

Results flagged for a closer look

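Kept cells that met no gate at all, 1486 in DPN and 2109 in Control, enter no comparison above. Clock genes with an interval above 1 there are listed, although 48.8% of the 11923 genes with at least 50 UMIs in these cells had such an interval, so it is no result about the clock genes. The ratio of UPM, DPN over Control, was 2.20 for Dbp, 1.69 for Tef, 1.47 for Nr1d1, 1.12 for Nr1d2 (interval 1.01 to 1.23), 2.43 for Per1, 1.35 for Per2, 1.2 for Per3 and 1.49 for Ciart, and 25.9% of all genes had a ratio of at least 1.5. Arntl in these cells stood at 5.87 UPM in DPN and 14.5 UPM in Control, a ratio of 0.404 (0.326 to 0.497). Of all genes 18.8% had an interval below 1, 6.14% were past the fold and lower, and 0.537% had a ratio at or below that of Arntl. These cells were not assigned to a type, and the part that their mix of types has in the ratios was not tested.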

How the results depend on the processing

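Of 359 ratios recomputed under the alternatives, 318 stayed within the counting interval of the reported value, 37 moved outside it on the same side of 1, and 4 past the fold changed side. Ciart in smooth muscle, within the fold, changed side under the 10% mitochondrial limit (0.945) and under thinning (0.872). The 4 came from thinning to 1000 UMIs per cell, which left between 7.13% and 22.4% of the UMIs of a type: Ciart at 0.732 in myelinating Schwann cells, and Tef at 0.762, Per2 at 0.979 and Ciart at 0.783 in fibroblasts. Ratios that came within the fold included Nr1d1 (1.39) and Per3 (1.38) in satellite glia and Nr1d1 (1.27) in myelinating Schwann cells under the 10% limit, Dbp (1.31) in smooth muscle and Per3 (1.40) in myelinating Schwann cells after thinning, and Per3 (1.42) in endothelium under the 10% limit. Hlf in endothelium had no UMI left in Control after thinning and gave no ratio. Over all alternatives Dbp stayed between 2.65 and 3.45 in satellite glia and between 3.47 and 6.36 in endothelium, and Arntl between 0.448 and 0.620 and between 0.254 and 0.499. The opposite sides of driven genes and Arntl held in 3 types of 4 under that mitochondrial limit, which left 115 DPN and 210 Control satellite glia and no clock gene with 50 UMIs in myelinating Schwann cells.

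Numbers of clock genes past the fold moved as follows. Under the 10% limit 3 of 5 were higher in satellite glia, beside 21.2% of all genes, and 0 lower. After thinning 0 of 1 was higher in myelinating Schwann cells, beside 16.6% of all genes, and 1 of 4 in smooth muscle, beside 16.5%. In fibroblasts 2 of 2 were higher, beside 19.6%, and in endothelium 0 of 7 lower. With at least 200 UMIs per gene 2 of 3 were higher in myelinating Schwann cells, beside 14.4%. In fibroblasts 3 of 4 were higher, beside 22.0%. With at least 20 UMIs 1 was lower (Arntl) in smooth muscle and 1 in fibroblasts. With a fold of 2, 5 of 9 were higher in satellite glia, beside 13.1%, and 0 lower. In myelinating Schwann cells 1 of 7 was higher, beside 7.42%. Shares of lower genes are not given for these settings. Fewer UMIs, or a wider fold, are part of how these settings are built. Scaling by the median ratio shifted the share of higher genes among those past the fold to 69.8% from 90.9% in satellite glia. This share came to 62.9% from 77.8% in myelinating Schwann cells, to 69.2% from 81.6% in smooth muscle and to 62.6% from 84.9% in fibroblasts. Under this scaling 8 clock genes were higher in satellite glia, 4 in myelinating Schwann cells, 8 in endothelium, 4 in smooth muscle and 6 in fibroblasts. Of all genes 19.0%, 17.0%, 17.7%, 16.1% and 20.3% were then past the fold and higher, in the same order of types. Arntl stayed past the fold and lower in satellite glia (0.468) and endothelium (0.415). No clock gene with at least 50 UMIs changed its side of 1.

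No paired analysis was possible because neither condition has more than 1 library, a pool of rats. Leaving out a replicate was not possible for the same reason. Depth limits Arntl in smooth muscle, fibroblasts, pericytes and macrophages, Per1 in these types, myelinating Schwann cells and neurons, and Hlf in every type but endothelium.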
